A study of Mus musculus with 4 samples.

Results

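The genes described here are 10 genes of the AP-1 transcription factor and of the immediate early response: Fos, Fosl1, Fosl2, Jun, Junb, Jund, Egr1, Ier2, Ier3 and Ier5l. They were taken by symbol from a table of 24169 genes, and each symbol matched 1 row. RNA-seq had been run on C8-D1A, an established mouse astrocyte line whose source the labels give as brain, in 2 untreated libraries (control 1 and control 2) and in 2 libraries of cells kept in 1 mM MBP for 24 h (MBP 1 and MBP 2). The labels name no strain, genotype, batch or vehicle. Nor do they state whether 2 libraries of 1 group go back to different cultures, and so p-values measure the spread between these libraries, which may be technical. By its title, the series is about exposure of mothers to the plasticizer DBP, and MBP is given only as an abbreviation. Ier5l was selected on its lower FPKM in MBP in these same libraries, so its difference is a description with no test. The other 9 are known immediate early genes.

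Immediate early genes are transcribed within minutes of a growth factor, stress or calcium signal, from factors already present in the cell and without new protein synthesis. MAP kinases phosphorylate the ternary complex factors that sit with serum response factor on such promoters, and many of the messenger RNAs are short-lived, so that a pulse is usually over well before a day has passed. AP-1 is a dimer of a JUN-family protein with a FOS-family or another JUN-family protein, and it drives genes of proliferation, migration, matrix turnover and inflammation. In astrocytes these factors are known as early markers of injury and stimulation.

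Library depth, read from the smallest step between FPKM values (fragments per kilobase of gene length, scaled to library depth), was 23571000 to 25907000 reads. Of 9 defining astrocyte markers, 6 lay below 1 FPKM in every library, among them Slc1a3 (0, 0, 0 and 0.00452 FPKM in control 1, control 2, MBP 1 and MBP 2) and Gfap (0.282, 0.241, 0.218 and 0.119). The markers S100b, Sox9 and Vim were detected above that. The astrocyte markers did not move as 1 set. Both MBP libraries lay above both controls for Sox9, Slc1a2 and Gja1, and below them for Gfap, Aldh1l1, S100b and Vim. Slc1a2, Gja1, Gfap and Aldh1l1 were among those below 1 FPKM. Gja1 had only 3, 5, 12 and 8 recovered reads in control 1, control 2, MBP 1 and MBP 2, and Aldh1l1 had 9, 12, 6 and 7. For Aqp4 and Slc1a3 the groups overlapped. Of the defining markers of other cell types, Cldn5 of endothelium was listed at 0 in each library. Sox10 of the oligodendrocyte lineage stood at 96.1 to 99.97 FPKM in controls and 87.8 to 89.6 in MBP, and Tubb3 of neurons at 30.8 to 33.2 and 23.3 to 23.8. Among all genes at 1 FPKM or more in at least 2 libraries, 21.3% had both MBP libraries above both controls and 23.5% below. These shares leave out the 6 astrocyte markers below 1 FPKM. The summed FPKM of each of the 6 marker lists was lower in both MBP libraries than in both controls. It was 536.7 and 539.7 in controls and 508.0 and 495.2 in MBP for astrocytes, nearly all of it Vim. For neurons, where Snap25 and Syt1 were near 0, it was the level of Tubb3. For microglia it was 6.04 and 6.43, then 5.10 and 5.71, nearly all of it Tmem119, while Cx3cr1 was higher in MBP (0.201 and 0.122, then 0.334 and 0.248). Oligodendrocyte markers came to 116.2 and 111.2, then 103.5 and 103.1, fibroblast and pericyte markers to 7.75 and 7.20, then 6.89 and 6.49, and endothelial markers to 0.0889 and 0.0817, then 0.0804 and 0.0496. The part of such markers in the results below was not tested.

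The members covered a wide range of levels, and their order was stable across the 4 libraries at both ends. By FPKM, which is a level per gene length, Fosl1 was highest at 83.3 to 124.1 and stood above 98.0% of tested genes. Jun followed at 42.6 to 46.8 and Ier3 at 34.6 to 42.3, and the ranges of these 3 genes over the libraries did not overlap. Ier5l (14.6 to 22.3), Jund (14.3 to 17.9986), Ier2 (11.8 to 17.7), Fosl2 (12.8 to 13.7) and Egr1 (10.1 to 18.4) came next, and each neighbour in that order overlapped with the following gene. Junb lay apart at 7.38 to 8.53. Fos, the member after which the family is named, was last at 0.629 to 1.26 FPKM, higher than only 0.887% of tested genes. Only genes at 1 FPKM or more in at least 2 libraries were tested, which Fos reached in control 2 and MBP 1 alone. A rank near the bottom was thus set by the filter, and the 11766 genes under it are not counted.

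**Figure D1:**
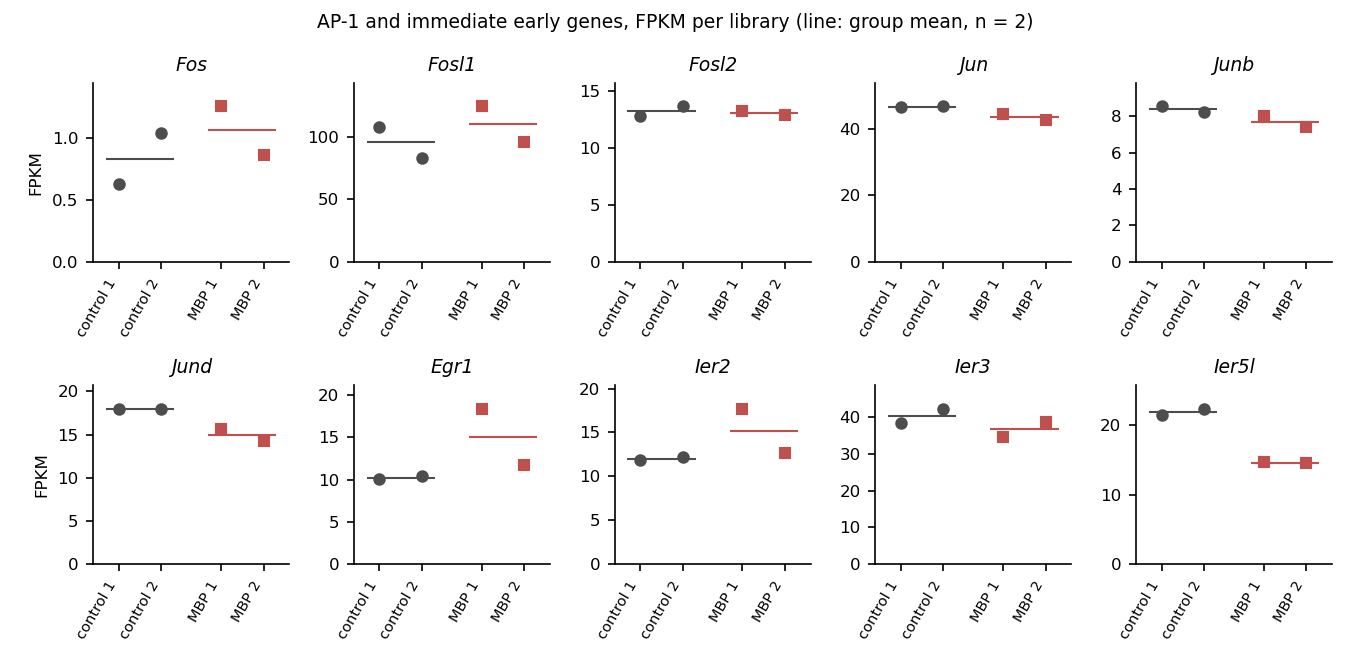
Level of each of the 10 genes in FPKM (vertical axis from 0, scale differing between panels) in the 2 control libraries (grey circles) and the 2 MBP libraries (red squares), with the group mean as a line. Egr1 and Ier2 are high in MBP 1 (18.4 and 17.7 FPKM), Jun, Junb and Jund are slightly lower in both MBP libraries, and Ier5l shows no overlap of the groups (21.4 and 22.3 against 14.6 and 14.6 FPKM).

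The promoters of 4 members are printed. They carry elements that early response genes are known for, or belong to members whose groups did not overlap. The choice was not complete, since Jund, whose groups did not overlap, and Ier3 also held matches. RefSeq (GRCm38.p6) windows were at hand for 7 of the 10 members, and Fosl1, Egr1 and Ier2 had none, so their promoters were not searched. Each run below holds the 250 bases before the RefSeq start site, 5′ to 3′ on the strand of the gene, with matches on either strand in capitals. The motifs searched were the TATA box (TATAAA, in 12.4% of 32851 windows of this length), the CCAAT box (CCAAT, 33.8%), the core of the cAMP response element (TGACG, 17.8%), the full cAMP response element (TGACGTCA, 1.55%), the AP-1 site (TGANTCA, 6.75%), its spaced form (TGANNTCA, 11.9%) and the CArG box of serum response factor (1.47%). The full cAMP response element contains this core and is also a spaced AP-1 form.
Fos, chr12:85473640-85473889, plus strand: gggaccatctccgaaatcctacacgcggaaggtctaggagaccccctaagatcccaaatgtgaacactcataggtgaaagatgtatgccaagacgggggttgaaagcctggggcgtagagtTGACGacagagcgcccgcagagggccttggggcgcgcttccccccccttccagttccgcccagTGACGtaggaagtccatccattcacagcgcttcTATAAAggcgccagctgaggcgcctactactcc
Jun, chr4:95052223-95052472, minus strand: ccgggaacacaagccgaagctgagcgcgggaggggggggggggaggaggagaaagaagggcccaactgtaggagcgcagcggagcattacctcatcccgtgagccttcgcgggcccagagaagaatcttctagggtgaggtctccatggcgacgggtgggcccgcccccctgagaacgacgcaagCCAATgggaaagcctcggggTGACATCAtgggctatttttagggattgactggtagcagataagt
Junb, chr8:84978749-84978998, minus strand: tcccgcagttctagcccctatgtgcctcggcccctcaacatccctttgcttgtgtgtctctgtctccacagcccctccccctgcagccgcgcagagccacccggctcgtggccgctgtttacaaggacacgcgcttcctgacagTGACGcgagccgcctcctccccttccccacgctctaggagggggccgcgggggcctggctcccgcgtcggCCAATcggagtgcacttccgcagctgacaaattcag
Ier5l, chr2:30474200-30474449, minus strand: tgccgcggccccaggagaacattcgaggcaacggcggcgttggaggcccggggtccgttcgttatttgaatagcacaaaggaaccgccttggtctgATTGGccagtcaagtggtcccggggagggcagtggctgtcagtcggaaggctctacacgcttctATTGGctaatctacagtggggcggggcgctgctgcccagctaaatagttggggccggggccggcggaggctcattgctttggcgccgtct

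Fos held a TATA box 33 bases before the start site and cores of the cAMP response element at 129 and 66 bases before it. Jun held a CCAAT box at 65 bases and the spaced AP-1 form TGACATCA at 45 bases, the letters of an element through which JUN is known to act on its own gene. A match is a description of letters, not a measured site. Junb had a CCAAT box at 36 bases and such a core at 106 bases, and Ier5l had 2 CCAAT boxes, read on the other strand as ATTGG, at 154 and 90 bases. In the other windows Ier3 had 2 CCAAT boxes, Jund 1 spaced AP-1 form (TGAAATCA) and Fosl2 no match. The start of Jund in the deposited table lay 1210 bases downstream of the RefSeq start, so its window is not next to the gene as it was counted. The CArG box, the full cAMP response element and TGANTCA were found in 0 of the 7 windows, which says only that these letters are not in them. Bases further upstream were not searched.

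Of the 9 members other than Ier5l, 0 passed limma's moderated test at an adjusted p under 0.05. Over all 12403 tested genes 0% passed, and limma-voom on recovered reads, which called 0.11% of 14496 genes, called 0 of the 9 as well. At an unadjusted p under 0.05 there was 1 of the 9, Jund, which was lower in MBP. By that rule 9.68% of all tested genes were found and 5.87% were lower. After the GC and length correction Jund had an unadjusted p of 0.133, Egr1 of 0.0444 and Ier2 of 0.0408, the last 2 with an adjusted p of 0.708 each in limma's test. In limma-voom the unadjusted p was 0.0105 for Jund, 0.00149 for Egr1 and 0.0295 for Ier2, with adjusted p of 0.330, 0.217 and 0.385. With protein-coding genes only, limma's unadjusted p was 0.00526, 0.0163 and 0.0454 in the same order. Of the genes at an unadjusted p under 0.05, 473 were higher and 728 lower as FPKM. These counts were 508 and 679 with median-of-ratios scaling, 555 and 647 with quantile normalization, and 634 and 574 as TPM, where more genes (15312) passed the filter. The members' log2 fold changes were positive for 4 and negative for 5, with a median of -0.01, against -0.00477 for all tested genes. In 3 of the 9 both MBP libraries lay below both controls, against 23.5% of all tested genes. These were Jun, Junb and Jund. In 2 both MBP libraries lay above both controls, Egr1 and Ier2, against 21.3%. Fold changes are differences of log2(FPKM + 1), MBP minus control, and understate changes of low genes such as Fos. In such bulk libraries fewer expressing cells and less RNA per cell cannot be told apart.

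The FOS subunits differed more between libraries of a group than between groups. Fosl1, which encodes FRA-1, the FOS protein typical of sustained rather than transient signalling, had 107.6 and 83.3 FPKM untreated, then 124.1 and 96.0 under MBP. The groups overlapped, with MBP 2 below control 1. Of its exon bases 57.2% are shared with Ccdc85b on the opposite strand. Its log2 fold change was 0.20 (95% interval -0.23 to 0.64, limma adjusted p = 0.683), while the controls alone differed by 0.37 on the same scale and the MBP libraries by 0.37. Without control 2 the difference came to 0.02 and without MBP 1 to 0.02. Without control 1 and without MBP 2 it came to 0.39, and after the GC and length correction to 0.31.

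Fosl2, which encodes FRA-2, had the difference nearest to 0 among the members, at 12.8 and 13.7 FPKM in control libraries, against 13.3 and 12.9 in MBP (log2 fold change -0.01, 95% interval -0.17 to 0.14, limma adjusted p = 0.945). The MBP values lay inside the span of the controls. Fos, the short-lived founding subunit, had 0.629 and 1.05 FPKM without and 1.26 and 0.87 with MBP, from 36, 58, 71 and 53 recovered reads. The exact 95% Poisson interval of control 1 reached from 25.2 to 49.8 reads and that of MBP 1 from 55.5 to 89.6. The intervals cover counting error only. The groups overlapped, since control 2 exceeded MBP 2, and the log2 fold change of 0.17 had an interval of -0.29 to 0.63 (limma adjusted p = 0.738). With 1 library left out it ran from 0.00673 (without control 1) to 0.34 (without control 2). Fosb, the remaining FOS gene, lay under the filter at 0.181 to 0.253 FPKM in all 4 libraries and was not tested.

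Fosl1 thus made up most of the FOS-family level, measured as a share of the summed FPKM of Fos, Fosb, Fosl1 and Fosl2. Its share was 88.7% and 84.8% in controls against 89.4% and 87.2% in MBP. Fosl2 held 10.6% and 13.9% in controls against 9.56% and 11.7% in MBP. Fos held 0.518% and 1.07% in controls against 0.908% and 0.79% in MBP. The shares of the groups overlapped for each of these 3 genes. In a comparison of 2 against 2 libraries the smallest exact permutation p is 0.333, so the shares were not tested.

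**Figure D2:**
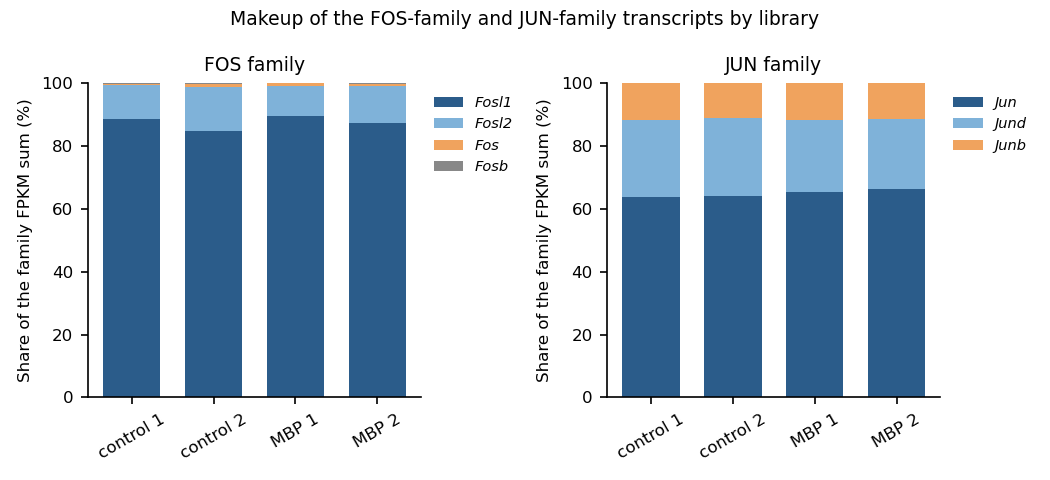
Share of each subunit gene in the summed FPKM of the FOS family (left) and the JUN family (right), in percent on the vertical axis, with 1 bar for each library. Fosl1 holds 84.8% to 89.4% of the FOS family in every library, and the Jund share of the JUN family is 24.6% and 24.5% in controls against 22.9% and 22.2% in MBP.

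The 3 JUN subunits all had lower values in MBP, by 6.73% (Jun), 8.09% (Junb) and 16.8% (Jund) of the control mean, with groups that did not overlap and without any passing the test. Jun, the strongest activator of the family, had 46.6 and 46.8 FPKM untreated, then 44.5 and 42.6 under MBP (log2 fold change -0.10, 95% interval -0.23 to 0.04, limma adjusted p = 0.567). The controls differed by 0.00784 on the log2 scale and the MBP libraries by 0.06. Junb, which can restrain JUN activity, had 8.53 and 8.22 FPKM in control libraries, against 8.02 and 7.38 in MBP (log2 fold change -0.11, 95% interval -0.28 to 0.06, limma adjusted p = 0.601). From 440 to 478 reads a library, the counting intervals of Junb overlapped between control 2 (7.48 to 9.02 FPKM) and MBP 2 (6.71 to 8.10 FPKM). Its log2 fold change ran from -0.16 to -0.06 with 1 library left out.

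Jund, the JUN gene usually expressed at a steady level, had 17.9986 and 17.9057 FPKM without and 15.6 and 14.3 with MBP (17.95 ± 0.0657 and 14.9 ± 0.929, SD, n = 2 each). Both MBP libraries lay below both controls by more than the libraries of either group differed. Its log2 fold change was -0.25 (SE 0.0635, 95% interval -0.41 to -0.09), with an unadjusted p of 0.0105 and an adjusted p of 0.496 in limma's test. It ran from -0.31 to -0.19 when 1 library was left out, and the unadjusted p was 0.0929 without MBP 2. The Jund share of the JUN-family FPKM was 24.6% and 24.5% in controls against 22.9% and 22.2% in MBP, while that of Jun was 63.7% and 64.2% and then 65.3% and 66.3%. The groups did not overlap in either share, but shares of 1 family depend on each other and are not separate results. The summed FPKM of the FOS family over that of the JUN family was 1.66 and 1.35 untreated against 2.04 and 1.71 under MBP. The FOS sums alone overlapped between the groups (121.3 and 98.2, then 138.8 and 110.1 FPKM). The JUN sums did not (73.1 and 72.9, then 68.1 and 64.2 FPKM).

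Genes of a base composition like that of the JUN genes also had negative median log2 fold changes. The part of base composition in the differences of the JUN genes was not tested. All 10 members lay above the median GC content of tested transcripts (49.0%), and 4 of them, Junb, Jund, Ier2 and Ier5l, lay above 97.1% of tested genes or more. Among the 71 tested genes within 2.5 percentage points of the GC content of Jund (67.1%), the median log2 fold change was -0.19, and after a loess correction for GC content and length Jund itself stood at -0.10 (95% interval -0.25 to 0.05). For Junb (62.6%) the median of 424 such genes was -0.11, the same as its own value, and the corrected value was 0.02. For Jun (55.5%) the median of 2597 genes was -0.06 and the corrected value -0.04. Egr1 (57.3%) and Ier2 (60.9%) lay on the other side, at 0.48 and 0.30, where genes of like GC content had medians of -0.07 and -0.10. After the correction these 2 members stood at 0.55 (95% interval 0.02 to 1.07) and 0.42 (0.03 to 0.82). All medians given here are of values before the correction. Ier5l (63.8%) stood at -0.55, against a median of -0.11 for its 229 neighbours, and at -0.43 after the correction. It was chosen for its fall in these libraries, so this gap is a description only.

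**Figure D3:**
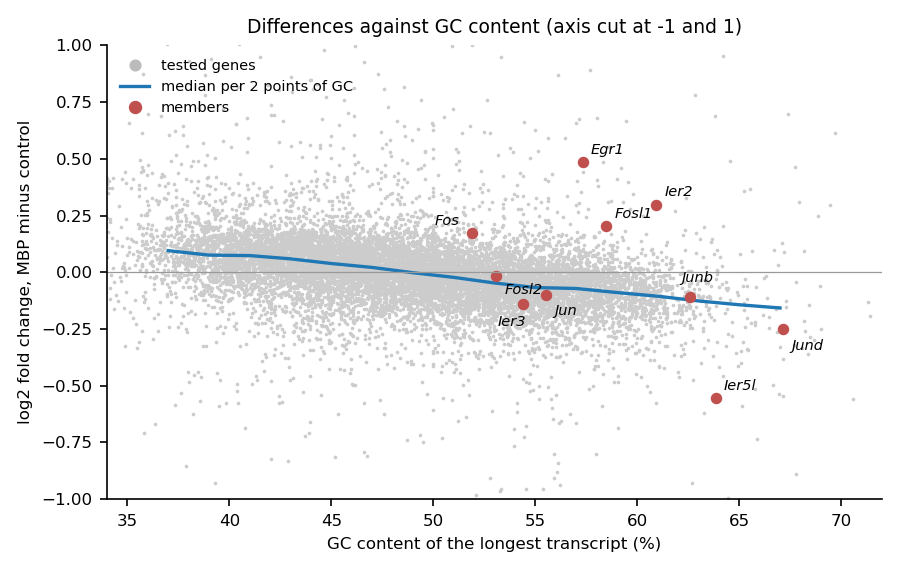
Log2 fold change (vertical axis, MBP minus control, cut at -1 and 1) against GC content of the longest transcript in percent (horizontal axis) for tested genes (grey), with their median in steps of GC content (blue line) and the 10 members (red). The line falls with GC content, Jun, Junb and Fosl2 lie near it, Egr1 lies above it at 0.48 and Ier5l below it at -0.55.

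Egr1 and Ier2 were higher in both MBP libraries, but most of the difference came from MBP 1. Egr1, a zinc-finger transcription factor induced through serum response elements (chromosome 18), had 10.1 and 10.4 FPKM untreated, then 18.4 and 11.7 under MBP, from 1098, 1096, 1976 and 1358 reads. Thus MBP 1 stood at 1.80 times and MBP 2 at 1.14 times the control mean. The exact 95% counting interval of MBP 1 was 17.6 to 19.2 FPKM and that of MBP 2 was 11.1 to 12.3, so the 2 treated libraries differed by more than counting error. The log2 fold change was 0.48 (SE 0.2, 95% interval -0.03 to 1.00, limma adjusted p = 0.517). It was 0.18 without MBP 1 and came to 0.79 without MBP 2.

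Ier2, a small nuclear protein of the IER family, followed the same order of libraries. It had 11.8 and 12.2 FPKM in control libraries, against 17.7 and 12.7 in MBP, from 438, 437, 646 and 499 reads. The counting interval of MBP 2 (11.6 to 13.8 FPKM) overlapped those of both controls, and that of MBP 1 (16.4 to 19.1 FPKM) overlapped none of the other 3. The log2 fold change was 0.30 (95% interval -0.09 to 0.69, limma adjusted p = 0.558), 0.07 without MBP 1 and 0.53 without MBP 2. Egr2, a close relative of Egr1 that was picked after its values were seen, had 1.52 and 1.69 FPKM without and 2.21 and 1.76 with MBP, again highest in MBP 1.

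Among the members, 9 of 10 had a higher FPKM in MBP 1 than in MBP 2, and 4 (Fos, Fosl1, Egr1 and Ier2) had their highest value in MBP 1. For Ier5l the MBP values were nearly equal, at 14.626 and 14.559 FPKM. Among the members with recovered reads, the counting intervals of MBP 1 and MBP 2 were apart only for Egr1 and Ier2. Over all tested genes 44.2% were higher in MBP 1 than in MBP 2 and 19.8% had their highest value there. The labels give the 2 MBP libraries the same dose and time.

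Ier3, a stress-inducible protein that modulates ERK signalling and cell survival and is not related in sequence to Ier2, had 38.5 and 42.3 FPKM untreated, then 34.6 and 38.7 under MBP. The groups overlapped, MBP 2 lying just above control 1. Its log2 fold change was -0.14 (95% interval -0.35 to 0.07, limma adjusted p = 0.591), and it was the 1 member lower in MBP 1 than in MBP 2. It stood at -0.06 without MBP 1, at -0.22 without MBP 2 and at -0.05 after the GC and length correction.

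Ier5l, a gene related to Ier2 and Ier5 by its protein family, had 21.4 and 22.3 FPKM in control libraries, against 14.6 and 14.6 in MBP (21.9 ± 0.635 and 14.6 ± 0.0473, SD, n = 2 each), from 1401, 1413, 940 and 1012 reads. The MBP mean was 0.667 of the control mean, a log2 fold change of -0.55, and it ran from -0.58 to -0.53 when 1 library was left out. The gap between the groups was far wider than the gap within either, which is the property it was chosen for. The tested protein-coding genes with the most similar pattern over the 4 libraries, by root mean square difference of mean-centred log2(FPKM + 1), were Creld2 (0.0186), Id3 (0.031) and Sdf2l1 (0.0383), a likeness over 4 points only. Ier5, the near relative of Ier5l and itself an immediate early gene, had 15.5 and 18.2 FPKM without and 13.9 and 14.6 with MBP (log2 fold change -0.22, limma adjusted p = 0.516).

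**Figure D4:**
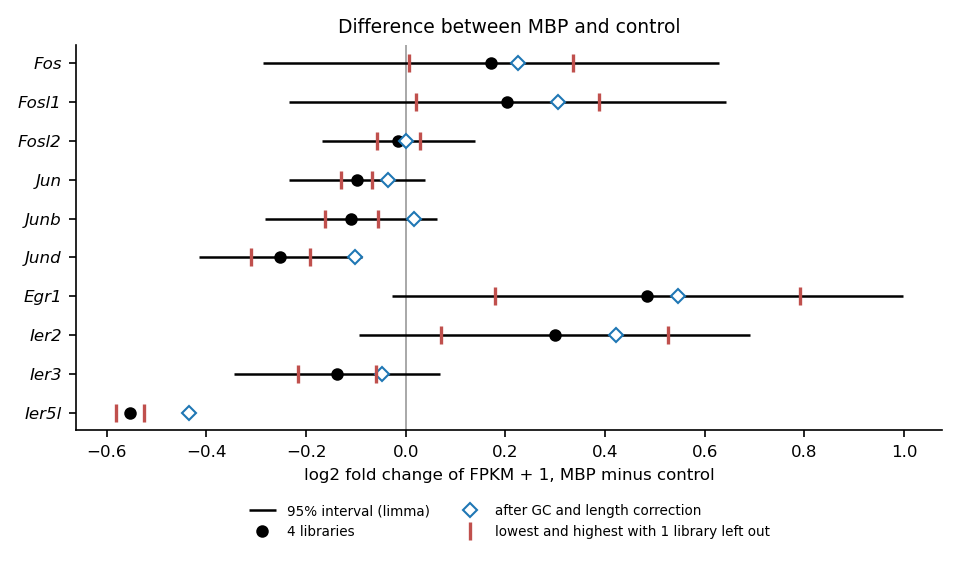
Log2 fold change of FPKM + 1 (horizontal axis, MBP minus control) for the 10 genes, with limma's 95% interval (black line; not drawn for Ier5l, which was chosen for its low value in MBP), the value after GC and length correction (open diamond) and the lowest and highest values with 1 library left out (red ticks). Of the 9 intervals, 8 span 0 and that of Jund runs from -0.41 to -0.09, while the corrected value of Jund is -0.10.

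Several members share exons with a gene on the opposite strand, and whether the authors counted by strand is not given in the sources used here. Fosl1 (chromosome 19, 5447703 to 5455945, plus strand) shares 1163 of its 2033 annotated exon bases with Ccdc85b, a coiled-coil protein gene on the minus strand. Ccdc85b had 28.4 and 27.2 FPKM untreated, then 19.7 and 20.5 under MBP, lower in MBP, where the mean of Fosl1 was higher. Jund (chromosome 8, 70698949 to 70700616, plus strand) contains all exon bases of the antisense gene Gm11175, which had 0.234, 0.919, 0.19 and 0.528 FPKM in control 1, control 2, MBP 1 and MBP 2, far below Jund. Jun (chromosome 4, 95049034 to 95052222, minus strand) shares 232 bases with its antisense gene Junos, at 0.429 and 0.495 FPKM in control libraries, against 0.568 and 0.619 in MBP. Junb (chromosome 8, 84974484 to 84978718, minus strand) shares 173 bases with Prdx2, at 48.7 and 58.0 and then 51.5 and 50.1. The part of these neighbours in the members' values was not tested. The other 6 members, among them Fos (chromosome 12, 85473890 to 85477273), Fosl2 (chromosome 5, 32135801 to 32157842), Ier2 (chromosome 8, 84661331 to 84662852), Ier3 (chromosome 17, 35821684 to 35822923) and Ier5l (chromosome 2, 30471537 to 30474219), share no exon base with another annotated gene. Coordinates are those of the deposited table (GRCm38).

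The other genes of the pathway were described by list, and in each of the 5 lists 0 tested genes passed limma's test. Among 8 tested AP-1 partners the median log2 fold change was -0.09, with 4 genes lower and 2 higher in groups that did not overlap, where 23.5% of all tested genes were lower and 21.3% higher. Atf3, a stress-induced partner of JUN proteins, had 3.64 and 3.74 FPKM without and 2.58 and 2.72 with MBP (log2 fold change -0.36, limma unadjusted p = 0.00518, adjusted p = 0.459). It stood at -0.30 after the GC and length correction. Atf7, another bZIP factor, stood at 0.16 and Mafk, a small MAF protein, at -0.14, and after the correction they stood at 0.12 and -0.07. The partners Batf, Batf2 and Batf3 of lymphoid and myeloid cells and Fosb lay under the filter.

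Among 29 tested immediate early genes outside the members the median was -0.01, with 8 genes higher and 5 lower in groups that did not overlap, near the 21.3% and 23.5% of all tested genes. Klf6, a growth-related zinc-finger factor, had 31.7 and 30.7 FPKM untreated, then 35.7 and 34.5 under MBP (log2 fold change 0.16, limma adjusted p = 0.503). Sgk1, a kinase induced by serum and glucocorticoids, had 17.3 and 20.03 and then 22.0 and 21.5 FPKM (0.21, adjusted p = 0.512). After the GC and length correction Klf6 stood at 0.11 and Sgk1 at 0.23. Here too 22 of 29 were higher in MBP 1 than in MBP 2, and 14 had their highest value in MBP 1. The 6 genes of this list under the filter were Egr3, Egr4, Nr4a3, Arc, Npas4 and Btg2, several of them known as activity genes of neurons.

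The 24 genes of serum response and MAP kinase input were all tested, with a median of 0.05. At an unadjusted p under 0.05 there were 3 higher and 4 lower, where 3.81% and 5.87% of all tested genes were. In 13 both MBP libraries lay above both controls and in 4 below, against 21.3% and 23.5% of all tested genes. The 3 with the lowest unadjusted p were the kinases Map2k2 (MEK2) at -0.21, Rps6ka1 (RSK1) at -0.19 and Mapk8 (JNK1) at 0.19, with adjusted p of 0.503 each in limma's test. After the GC and length correction they stood at -0.10, -0.12 and 0.10. Srf, the serum response factor itself, had 17.3 and 19.2 FPKM in control libraries, against 18.6 and 16.0 in MBP, with groups that overlapped. Feedback inhibitors of MAP kinases had the narrowest range of the 5 lists, with log2 fold changes from -0.06 to 0.15 and a median of 0.03 over 12 genes. In this list Dusp5, a phosphatase of nuclear ERK, had 26.1 and 28.0 FPKM without and 30.7 and 29.5 with MBP, and Spred2 and Spred1, which restrain RAS signalling, stood at -0.06 and 0.06. Transcript levels do not show the activity of these kinases, which was not measured.

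Known AP-1 targets had a median of 0.04 over 13 tested genes, and 4 of them, Areg, Hbegf, Il11 and Cd44, had higher values at an unadjusted p under 0.05, against 3.81% of all tested genes. Areg, an EGF receptor ligand, had 7.37 and 7.96 FPKM untreated, then 10.4 and 9.40 under MBP (log2 fold change 0.33, limma adjusted p = 0.486). Hbegf, a ligand of the same receptor, had 38.4 and 39.9 and then 50.1 and 44.6 FPKM (0.27, adjusted p = 0.503). Il11, a cytokine, had 5.21 and 5.15 and then 6.99 and 6.12 FPKM (0.29, adjusted p = 0.503). The other was Cd44, an adhesion receptor, at 84.9 and 82.5 and then 92.4 and 94.1 FPKM. After the GC and length correction Areg, Hbegf and Il11 stood at 0.37, 0.31 and 0.34, and Cd44, at 0.15 before it, stood at 0.10. The matrix proteases Mmp3, Mmp9, Mmp10, Mmp13 and Mmp14 lay under the filter, below 1 FPKM in every library.

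**Figure D5:**
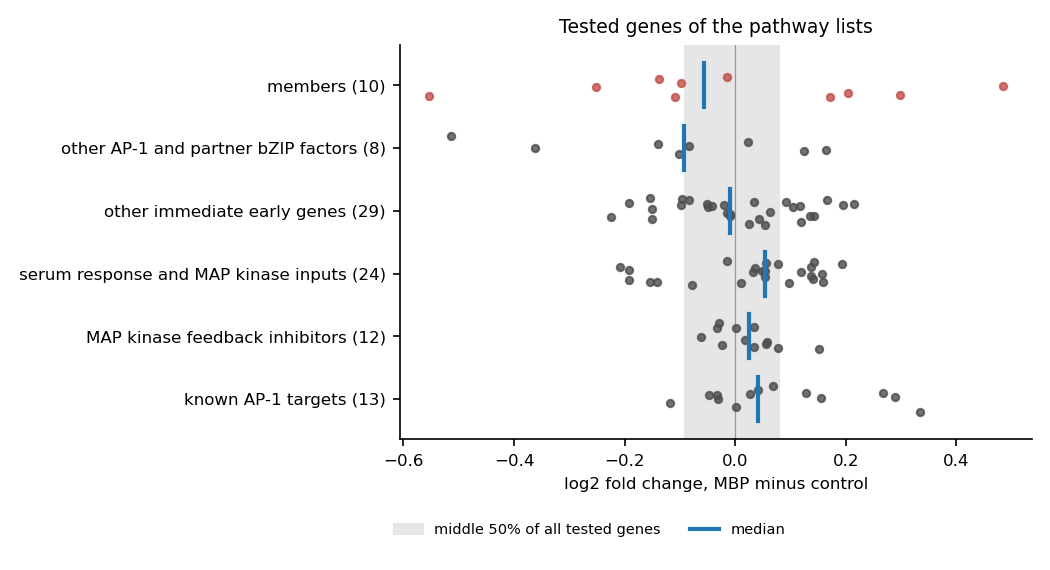
Log2 fold change (horizontal axis, MBP minus control) of the tested genes of each list, 1 point for each gene with random vertical scatter, the median as a blue line and the interquartile range of all tested genes as a grey band. The members run from -0.55 (Ier5l, chosen for its low value) to 0.48 (Egr1), and the medians of the 5 other lists lie between -0.09 and 0.05.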

How the data were processed

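RNA-seq of total RNA from 4 libraries of C8-D1A cells, 2 control and 2 MBP, was analysed. Libraries were made with a directional kit after removal of ribosomal RNA, per the labels' protocols. Per the submitters' processing notes, bcl2fastq and HISAT2 were used with GRCm38. For versions, counting program, annotation and strand setting, nothing is given in the sources used here. The deposited values are FPKM as the authors computed them, and each library's column carries its title. Replicate numbers used here follow accession order, not the numbers in the titles, and pair nothing.

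Values were tested as log2(FPKM + 1) for 12403 genes that reached 1 FPKM in 2 or more libraries, with limma 3.58.1 in R 4.3.3 (trend, two-sided, Benjamini-Hochberg over all tested genes, threshold 0.05). This test recovered known changes in simulated data whose noise depended on expression level alone. It thus does not show what size of change could be found in these libraries, and a gene not called may still differ. In each library, single-exon genes of 1 transcript fell on whole multiples of 1 step, as FPKM times GENCODE M21 exon length. Of all genes detected at up to 1000 reads, 93.8% to 94.0% did so. Limma-voom also took in genes whose values were not whole. Reads are given for the 9 members whose 4 values were whole within 0.05 (Fosl1 is the exception). GC content was that of the longest transcript.

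The members and lists were chosen with earlier results of these data known. All members are named. From each list the 3 tested genes with the lowest unadjusted p are named, and others named were picked after their values were seen. The alternatives were 2 pseudocounts, 2 filters, 3 scalings, 2 spread settings, protein-coding genes only, each library left out, a GC and length correction, and limma-voom on recovered reads.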

Additional observations from a re-analysis of the deposited data

How the results depend on the processing

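The counts held in 15 of 16 alternatives: 0 genes of the whole table were called, also with each library left out (range 0 to 0). Limma-voom on recovered reads called 16 of 14496 genes (0.11%), 0 of them among the 9 tested members. Of the 9 tested members 0 were called in any alternative, each library left out included (range 0 to 0). The sign of 8 of the 10 log2 fold changes held in all alternatives. Fosl2 turned to 0.00625 as TPM, and with 1 library left out it ran from -0.0578 to 0.0281 (positive without control 2, 0.0281, and without MBP 2, 0.00268). Junb turned to 0.0165 after the GC and length correction. Without the filter 2081 genes had an unadjusted p under 0.05, against 1201, and with 1 library left out there were 2254 (control 1), 948 (control 2), 601 (MBP 1) and 712 (MBP 2).

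The difference of the Fosl1 share of FOS-family FPKM, 1.56 percentage points, ran from -0.393 (without control 2) to 3.52 (without control 1) with 1 library left out. As a share of summed reads, where Fosl1 held 55.4% to 65.6%, it was 3.56, with the reads of Fosl1 estimated from an exon length that gave no whole numbers. That of the Jund share of the JUN family, -2.03 points, was -1.40 as a share of summed reads, which weights long genes more, and -2.36 to -1.70 with 1 library left out. That of Jun, 1.87 points, ran from 1.41 to 2.34. No paired analysis was possible because the sample titles, C2 and C3 for control 1 and 2 and T2-1(1-1) and T2-3(1-3) for MBP 1 and 2, share only 1 number between the groups, and nothing says that it marks a pair. With 2 libraries a group, precision is limited by the spread between them. For Fos, at 36 to 71 reads, counting error limits it as well.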
